A study of Mus musculus with 12 samples.

Results

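The axon guidance ligands and receptors were taken as the 70 protein-coding genes whose symbols name an ephrin, an Eph receptor, a Slit, a Robo receptor, a netrin or netrin-G, Dcc or an Unc5 receptor, a semaphorin of classes 3 to 7, a plexin or a neuropilin. They were 70 of 47069 distinct gene identifiers in the table. They fell into 10 families, namely 8 ephrins, 14 Eph receptors, 3 Slits, 4 Robo receptors, 5 netrins and netrin-Gs, 5 netrin receptors, 7 class 3 semaphorins, 13 semaphorins of classes 4 to 7, 9 plexins and 2 neuropilins. Every one of the 70 passed the filter on low values and was tested among 18319 genes. Ntn3 was not analysed here.

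Expression was measured by RNA-seq of total RNA, in stranded libraries of Pdgfra/GFP+ cells isolated from the (fore) brain or the spinal cord of embryos (E13.5, days after conception) and pups (P7, days after birth), with 3 libraries a group and 12 in all. The cells came from the Pdgfra-H2BGFP knock-in line, in which a histone joined to green fluorescent protein (GFP) is made from the Pdgfra locus. Per the study's methods, the animals were untreated heterozygotes of both sexes on a C57BL/6NJ background, so that every group carries 1 altered Pdgfra allele. Animals were pooled within each library, and p-values measure the spread between libraries, estimated for each gene over all 4 groups together. Pdgfra marks oligodendrocyte precursor cells (OPCs) after birth, GFP outlasts Pdgfra RNA into early differentiation, and in the embryo the label also takes in cells outside the oligodendrocyte lineage. Embryonic tissue was dissociated mechanically and P7 tissue with papain, so age and dissociation cannot be told apart.

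Guidance ligands steer growing axons and migrating cells by attraction or repulsion, and each family of ligands has its own receptors. Ephrins act on Eph receptor kinases, Slits on Robo receptors, netrins on Dcc and the Unc5 receptors, and semaphorins on plexins, with neuropilins as co-receptors for most class 3 semaphorins. In the oligodendrocyte lineage netrins, semaphorins and ephrins are known for directing precursor migration and for roles in process growth and myelination.

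Recovered reads ranged from 12566345 to 38790312 per library. E13.5 spinal cord replicate 3 stood apart, with 41.0% of its reads in protein-coding genes against 82.4% to 91.2% in the other libraries. At P7, replicates 1 and 2 differed from each other by a mean chi-square of 2.6 per gene in brain and 3.99 in spinal cord, against 20.0 to 27.9 for either of them with replicate 3, where read sampling alone gives about 1. They were kept as separate libraries because the paper describes the 3 replicates of a group as biological. These values exceed read sampling alone but cannot show whether replicates 1 and 2 came from separate pools of animals. The 7 OPC markers were detected in every group, with a summed level of 631 to 2352 CPM (reads scaled to library size) at E13.5 and 10408 to 11448 CPM at P7. The 9 vascular and leptomeningeal markers summed to 6037 to 12865 CPM at E13.5 and 1103 to 2618 CPM at P7, and the 12 neuron markers to 846 to 1175 CPM and 463 to 552 CPM. The neuron markers did not move together. At P7 Dcx alone was at 207 CPM in brain and 210 CPM in spinal cord. Tubb3 went from 329 and 293 CPM to 38.1 and 19.5 CPM. By the calls defined below, 4 of the neuron markers fell and 0 rose in brain, and 8 fell and 1 rose in spinal cord. Of the vascular and leptomeningeal markers, 7 fell and 1 rose in brain, and 9 fell in spinal cord. The 1 that rose in brain was Rgs5, from 6.48 to 15.5 CPM. The 10 markers of committed and myelinating oligodendrocytes summed to 32.7 to 81.0 CPM at E13.5, to 1689 to 4079 CPM in P7 brain and to 18406 to 24486 CPM in P7 spinal cord. The part of this mix of cells in the differences described for single members was not tested, and in bulk RNA fewer cells of a type and less RNA per cell cannot be told apart.

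More members were lower than higher after birth in both regions. In brain, 45 of the 70 members (64.3%) were called between E13.5 and P7, 15 higher and 30 lower at P7, where a call needed a Benjamini-Hochberg adjusted p under 0.05 in limma and more than a 2-fold change. Among all genes tested 27.7% were called, 11% higher and 16.7% lower. After TMM or median-ratio rescaling, 16 members were higher and 25 lower in P7 brain. In spinal cord, 49 of the 70 were called, 18 higher and 31 lower, beside 35.1% of all genes, 16.9% higher and 18.2% lower. These shares over all genes are also the background for the counts with age by family and by list below, which rest on few genes each. The median change of the members on the log2(CPM + 0.5) scale was −0.77 in brain and −0.78 in spinal cord, beside −0.19 and 0.12 over all genes tested. Calls in the same direction in both regions covered 36 members, 26 lower and 10 higher at P7, which is 36 of the 45 members called in brain and 36 of the 49 called in spinal cord. Epha1 and Epha8 were called in opposite directions, and 14 members were called in neither region. The overlap of calls between regions was not counted over all genes, so these overlap counts have no background here.

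**Figure D1:**
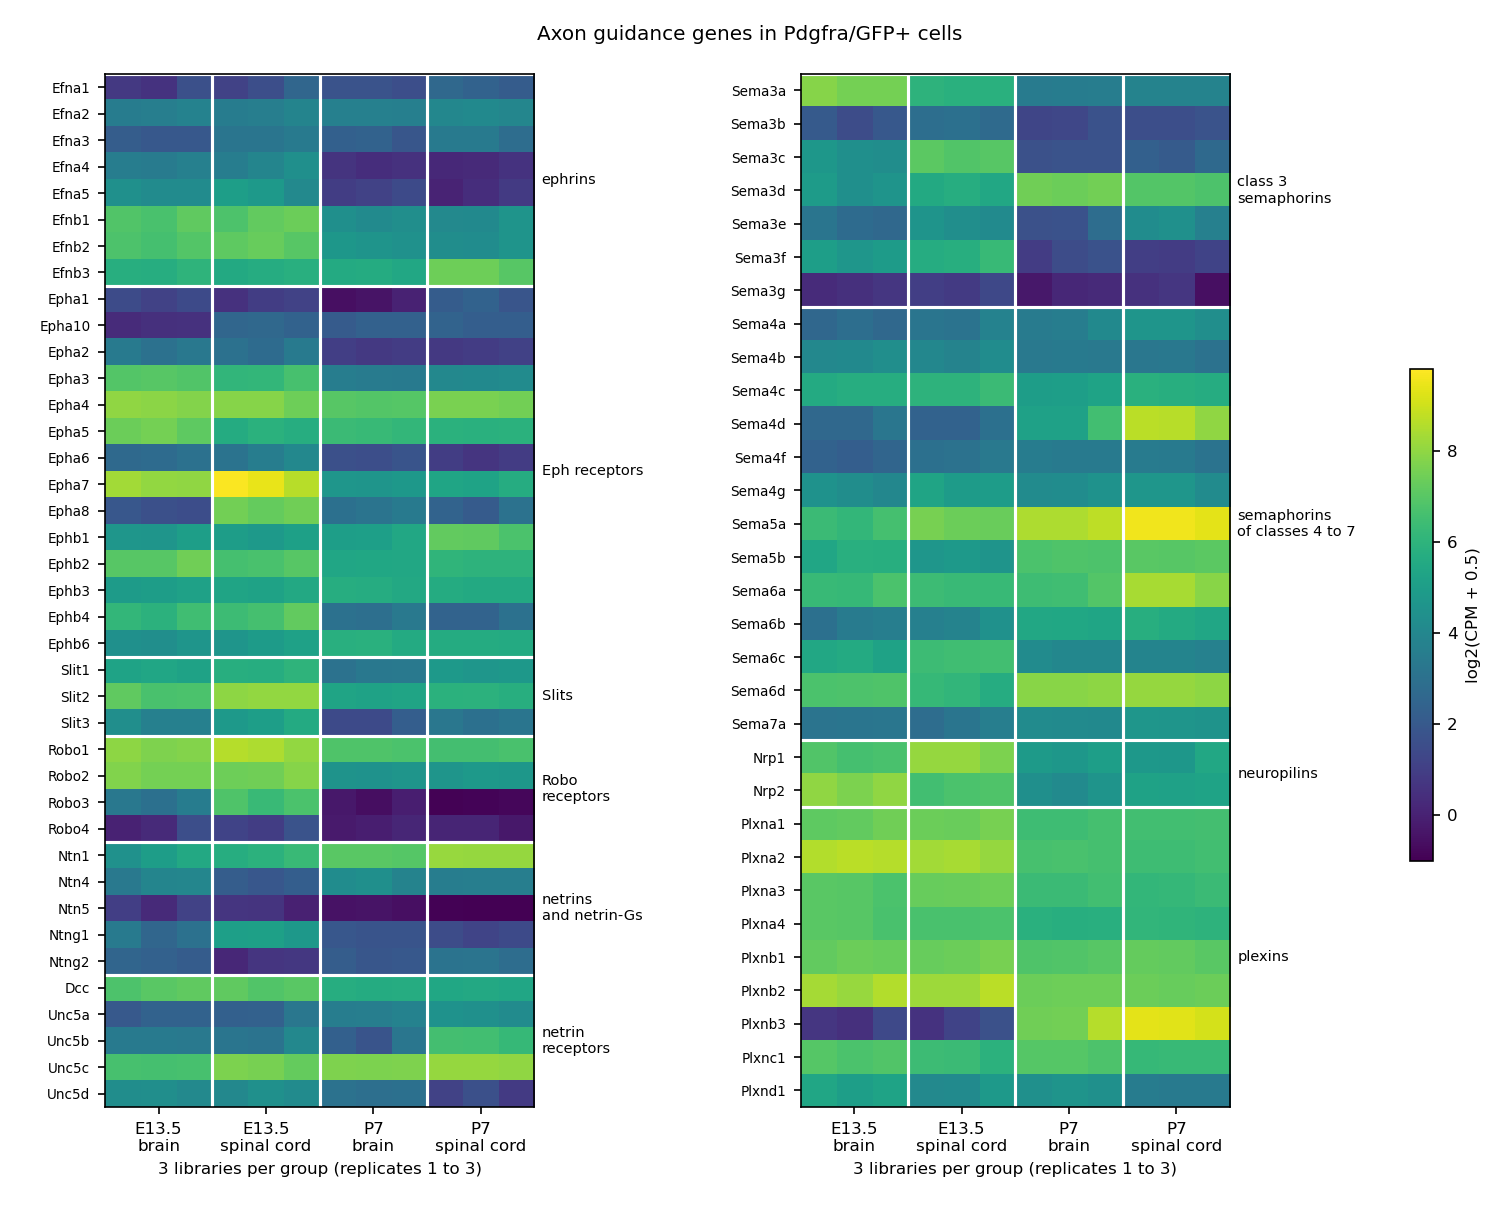
Level of each of the 70 genes in each of the 12 libraries, as log2(CPM + 0.5) by colour, with genes in rows by family and libraries in columns by group. Plxnb3 and Sema4d are dark at E13.5 and bright at P7, and Robo3 is bright in the 3 E13.5 spinal cord libraries and dark in the 6 P7 libraries.

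**Figure D2:**
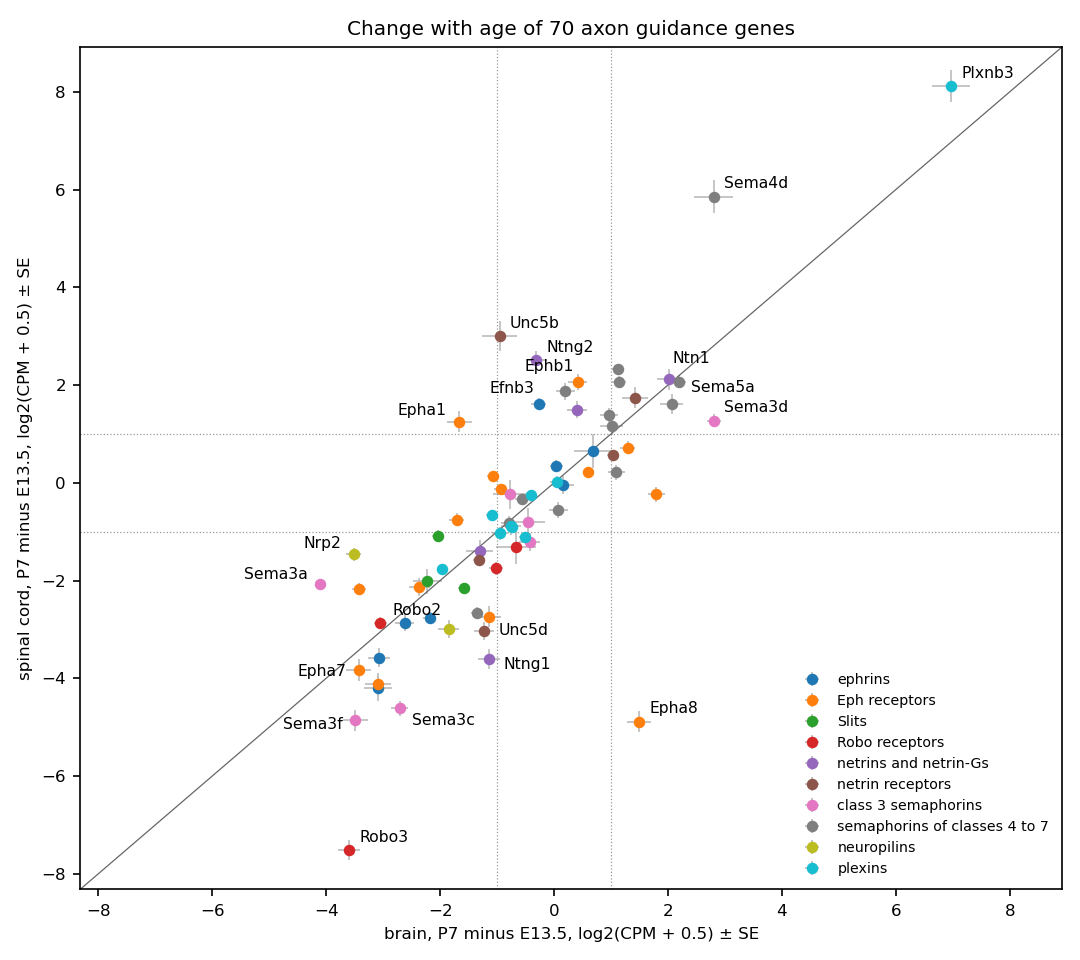
Change from E13.5 to P7 of each gene in brain (horizontal axis) and spinal cord (vertical axis), as a log2 difference with its standard error, coloured by family. The dotted lines mark a 2-fold change and the diagonal an equal change in both regions. Plxnb3 lies at 6.97 and 8.12, Robo3 at −3.60 and −7.51, and Epha8 at 1.49 and −4.89.

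Fewer members were called between brain and spinal cord at either age than between ages. At E13.5, 20 of the 70 (28.6%) were called, 5 higher and 15 lower in brain, beside 8.71% of all genes, 3.53% higher and 5.17% lower. At P7, 15 (21.4%) were called, 2 higher and 13 lower in brain, beside 6.62% of all genes, 2.27% higher and 4.35% lower. The shares over all genes at both ages are also the background for the regional counts by family and by list below, which rest on few genes each. The number higher in brain at P7 was 6, with 13 lower, by limma-voom, edgeR and DESeq2 on recovered reads, and 5 with a pseudocount of 0.1. After TMM or median-ratio rescaling it was 3, with 10 lower. It was 1 with a pseudocount of 1, with P7 replicates 1 and 2 averaged, and without P7 brain replicate 2 or P7 spinal cord replicate 2. The median difference of the members, brain minus spinal cord, was −0.37 at E13.5 and −0.18 at P7, beside 0.05 and −0.19 over all genes. Efna3, Sema3e and Slit3 were lower in brain at both ages, which is 3 of the 20 members called at E13.5 and 3 of the 15 called at P7. Ntng2 was higher in brain at E13.5 and lower at P7, 16 members were called at E13.5 alone, 11 at P7 alone and 39 at neither age. The overlap of calls between ages was likewise not counted over all genes. The change of the regional difference with age, tested as an interaction, was called for 26 members (37.1%), 13 in each direction, beside 16.3% of all genes, 6.66% higher and 9.66% lower. With median-ratio rescaling 25 were called, 16 higher and 9 lower.

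**Figure D3:**
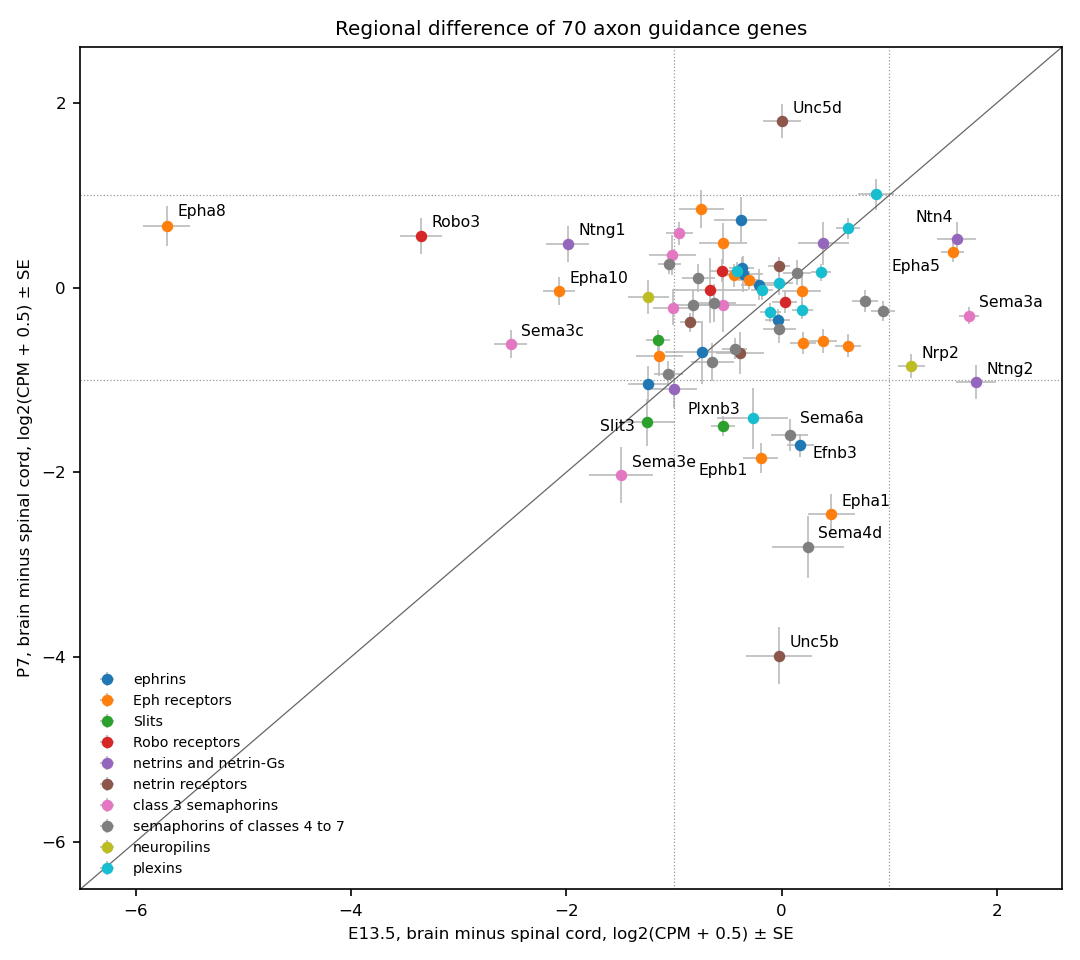
Brain minus spinal cord difference of each gene at E13.5 (horizontal axis) and at P7 (vertical axis), as a log2 difference with its standard error, coloured by family. The dotted lines mark a 2-fold difference and the diagonal an equal difference at both ages. Epha8 lies at −5.71 and 0.66, Robo3 at −3.35 and 0.56, Unc5b at −0.03 and −3.99, and Sema4d at 0.25 and −2.81.

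Epha8, Plxnb3 and Unc5b had the largest absolute difference of at least 1 comparison, and Robo3 had the largest fall of any member. The bases before the RefSeq start of these 4 genes (build GRCm38.p6) are shown because these members carry the extremes of the set. Bases inside the annotated span of the gene itself were left out of each window, and a promoter entry was found for 60 of the 70 members. The 32851 windows used for comparison below were only cut to the same length. Capitals mark a match to ACAAAG, a core bound by Sox factors, or to TAATTA, a core bound by homeodomain factors, each searched on both strands.
Epha8, chr4:136956817-136957066, minus strand: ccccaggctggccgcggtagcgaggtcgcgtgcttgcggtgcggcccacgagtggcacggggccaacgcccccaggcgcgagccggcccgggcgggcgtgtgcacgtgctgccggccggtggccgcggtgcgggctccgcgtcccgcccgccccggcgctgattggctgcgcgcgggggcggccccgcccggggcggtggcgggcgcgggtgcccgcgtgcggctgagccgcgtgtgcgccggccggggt
Robo3, chr9:37433247-37433425, minus strand: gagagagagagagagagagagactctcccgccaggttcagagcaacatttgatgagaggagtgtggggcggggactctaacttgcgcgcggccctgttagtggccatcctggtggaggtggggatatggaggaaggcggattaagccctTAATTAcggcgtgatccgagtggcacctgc
Plxnb3, chrX:73756853-73757089, plus strand: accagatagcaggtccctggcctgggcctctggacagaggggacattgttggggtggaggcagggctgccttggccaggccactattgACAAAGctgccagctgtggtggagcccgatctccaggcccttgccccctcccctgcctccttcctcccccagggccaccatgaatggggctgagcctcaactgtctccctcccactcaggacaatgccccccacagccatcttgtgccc
Unc5b, chr10:60831582-60831831, minus strand: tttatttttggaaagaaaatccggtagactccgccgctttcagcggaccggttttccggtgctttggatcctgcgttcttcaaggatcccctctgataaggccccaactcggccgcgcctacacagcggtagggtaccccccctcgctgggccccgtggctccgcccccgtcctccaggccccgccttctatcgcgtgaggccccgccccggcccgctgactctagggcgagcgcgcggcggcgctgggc
The Epha8 window of 250 bases held 46 CpG sites at 84.0% G and C, against a median of 6 CpG sites and 52.4% over 32851 windows of this length, and the Unc5b window held 27 at 66.8%. The Plxnb3 window of 237 bases held 1 CpG site at 64.6% and the Robo3 window of 179 bases held 9 at 58.1%, where the medians at these lengths were 5 and 3 sites. The Plxnb3 window had 1 match to ACAAAG, starting 149 bases before its end, and 15.8% of all windows of this length have one. The Robo3 window had 1 match to TAATTA, starting 30 bases before its end, and 3.84% of all windows of this length have one. The Epha8 and Unc5b windows had no match to either, beside 16.5% of windows with ACAAAG and 4.84% with TAATTA at their length.

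Ephrins are membrane-bound ligands, of which the A class is tethered by a lipid anchor and the B class spans the membrane. Of 8 ephrins, 4 fell with age in brain and none rose, and in spinal cord 4 fell and 1 rose, with a median log2 change of −1.23 and −1.40. Summed in CPM per kilobase (kb) of exon, which allows genes of different length to be added, the family stood at 88.9 ± 10.5 (SD, n = 3, as in every group below) in brain and 105 ± 11.8 in spinal cord at E13.5. At P7 it stood at 33.9 ± 1.55 in brain and 72.4 ± 7.77 in spinal cord. Efnb1, a ligand of EphB receptors, held the largest share of the family sum at E13.5, 39.3% in brain and 38.7% in spinal cord. At P7 the largest share belonged to Efnb3, at 43.9% and 68.0%.

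Efnb1 was measured at 116, 105 and 142 CPM in E13.5 brain and at 110, 146 and 167 CPM in E13.5 spinal cord. Its P7 values were 20.2, 17.7 and 19.4 CPM in brain and 16.5, 16.8 and 23.4 CPM in spinal cord. All E13.5 libraries lay above all P7 libraries, and the regions overlapped at each age. The log2 change of Efnb1 was −2.62 ± 0.17 (SE) in brain and −2.86 ± 0.17 in spinal cord, with limma adjusted p = 5.72e-08 and 1.55e-08. Efnb2, the ephrin of arterial vessels, changed by −2.18 and −2.77.

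The ephrin-A ligands Efna4 and Efna5 fell in both regions as well. Efna5, known for topographic mapping of retinal axons, was at 20.9, 17.9 and 18.2 CPM in E13.5 brain and 32.5, 28 and 16.7 CPM in E13.5 spinal cord, and at 1.454, 1.72 and 2.22 CPM in P7 brain and 0.567, 0.833 and 1.30 CPM in P7 spinal cord. The ages did not overlap in either region. The log2 change was −3.09 ± 0.25 in brain and −4.21 ± 0.25 in spinal cord (limma adjusted p = 3.83e-07 and 1.50e-08). The interaction was 1.11 ± 0.35 (adjusted p = 0.0247), but its adjusted p was 0.0501 to 0.0656 without E13.5 brain replicate 2 or 3, E13.5 spinal cord replicate 1 or 2, P7 brain replicate 3, or P7 spinal cord replicate 1 or 2. Efna4 changed by −3.07 in brain and −3.58 in spinal cord.

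Efnb3, a midline repellent of corticospinal axons that is also found in myelin, was the ephrin that rose. It was at 54.6, 52.4 and 65.4 CPM in E13.5 brain, at 46.5, 50.5 and 55.2 CPM in E13.5 spinal cord and at 48.6, 49.4 and 44.1 CPM in P7 brain. In P7 spinal cord it was at 172, 172 and 128 CPM, above each of the other 9 libraries. The change with age was 1.61 ± 0.13 in spinal cord (limma adjusted p = 1.82e-07) and −0.27 ± 0.13 in brain (adjusted p = 0.0806). The regional difference at P7, brain minus spinal cord, was −1.71 ± 0.13 (adjusted p = 1.57e-06). In P7 spinal cord replicate 3 was the lowest for Efnb3 and for the committed and myelinating markers, whose summed level was 18406 CPM there against 24233 and 24486 CPM. In P7 brain replicate 3 was the lowest for Efnb3 and the highest for those markers, at 4079 CPM against 1689 and 1699 CPM, and their part in the Efnb3 values was not tested.

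Efna3, an ephrin-A ligand, was called between regions at both ages and between ages in neither region. It was at 3.43 to 3.99 CPM in E13.5 brain and 8.58 to 10.5 CPM in E13.5 spinal cord, and at 3.20 to 4.83 CPM in P7 brain and 6.83 to 10.5 CPM in P7 spinal cord. Its regional difference was −1.24 ± 0.19 at E13.5 and −1.04 ± 0.19 at P7 (limma adjusted p = 0.000313 and 0.00142). The P7 difference was less than 2-fold after TMM rescaling, −0.87, and without P7 brain replicate 3 or P7 spinal cord replicate 1 or 2, −0.88 to −0.96. Efna1 and Efna2 were called in no comparison, with group means of 1.62 to 4.84 CPM and 12 to 15.8 CPM.

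Eph receptors are the largest family of receptor tyrosine kinases, and EphA members bind mainly ephrin-A and EphB members mainly ephrin-B ligands. Of the 14 receptors, 3 rose and 8 fell with age in brain, and 2 rose and 6 fell in spinal cord, with a median log2 change of −1.11 and −0.50. Their sum in CPM per kb was 128 ± 4.06 in brain and 196 ± 14.6 in spinal cord at E13.5, and 59.4 ± 0.406 in brain and 82.2 ± 3.55 in spinal cord at P7. Epha4, which binds both ephrin classes, held the largest share in brain, with 23.2% at E13.5 and 26.0% at P7, and in spinal cord at P7 (28.7%), and Epha7 in spinal cord at E13.5 (32.9%). Epha4 itself was called in no comparison, with group means of 239 CPM in brain and 210 CPM in spinal cord at E13.5, and of 125 and 190 CPM at P7.

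Epha8, an EphA receptor, was the member whose regional difference changed most with age. It was at 3.28, 2.64 and 2.41 CPM in E13.5 brain and at 183, 152 and 177 CPM in E13.5 spinal cord. At P7 it was at 7.36, 8.46 and 10.4 CPM in brain and at 4.94, 3.73 and 7.88 CPM in spinal cord. The 3 E13.5 spinal cord libraries stood far above the other 9, and the regions overlapped at P7. Its level rose in brain by 1.49 ± 0.22 and its change in spinal cord was −4.89 ± 0.22 (limma adjusted p = 6.93e-05 and 1.60e-09), and the interaction was 6.38 ± 0.31 (adjusted p = 1.55e-07).

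Epha7, a receptor of ephrin-A ligands, was at 317, 265 and 260 CPM in E13.5 brain and at 854, 688 and 396 CPM in E13.5 spinal cord, the lowest of the latter in replicate 3. At P7 it was at 25.1, 24.6 and 26.7 CPM in brain and at 40.0, 38.3 and 51.3 CPM in spinal cord. The ages did not overlap, nor did the regions at either age. The change with age was −3.43 ± 0.22 in brain and −3.83 ± 0.22 in spinal cord (limma adjusted p = 5.19e-08 and 1.18e-08). The regional difference at E13.5 was −1.14 ± 0.22 (adjusted p = 0.00179), and −0.90 without E13.5 spinal cord replicate 1.

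Epha3 and Ephb4 fell in both regions as well. Epha3, an ephrin-A receptor, was at 117 to 128 CPM in E13.5 brain and 68.7 to 100 CPM in E13.5 spinal cord, and at 10.4 to 11.4 CPM and 16.1 to 17.8 CPM at P7. Its change was −3.43 ± 0.12 in brain and −2.18 ± 0.12 in spinal cord (limma adjusted p = 6.00e-10 and 1.04e-08), and the interaction of −1.25 was less than 2-fold, −0.94, after median-ratio rescaling. Ephb4, the ephrin-B2 receptor of veins, was at 61.7 to 89.6 CPM in E13.5 brain and 84.9 to 147 CPM in E13.5 spinal cord, and at 7.27 to 9.66 CPM and 4.86 to 7.76 CPM at P7. Its change was −3.09 ± 0.22 and −4.12 ± 0.22 (adjusted p = 1.45e-07 and 7.14e-09). The 5 endothelial markers summed to 28.5 to 51.5 CPM in E13.5 brain, 92.3 to 115 CPM in E13.5 spinal cord and 18.2 to 30.3 CPM at P7. Called singly with age, 1 of them rose and 0 fell in brain, and 0 rose and 4 fell in spinal cord. Their part in the Ephb4 values was not tested. Epha2 changed by −2.37 and −2.14 and Epha6 by −1.14 and −2.74, the Epha6 change in brain being −0.98 after TMM rescaling.

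Among the receptors that rose, Ephb1, an ephrin-B receptor, was at 25.0, 24.5 and 32.7 CPM in E13.5 brain, at 31.7, 27.4 and 34.8 CPM in E13.5 spinal cord and at 32.6, 33.3 and 44.2 CPM in P7 brain. In P7 spinal cord it was at 148, 145 and 107 CPM. As for Efnb3, the P7 spinal cord libraries stood above each of the other 9 and replicate 3 was the lowest of them. The change in spinal cord was 2.07 ± 0.16 (limma adjusted p = 2.05e-07), and brain minus spinal cord at P7 was −1.85 ± 0.16 (adjusted p = 6.85e-06). Ephb6, which lacks kinase activity, rose in brain by 1.29 (21.7 to 53.7 CPM), and its change in spinal cord was 0.72.

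Epha10, also without kinase activity, was at 0.760, 0.922 and 0.965 CPM in E13.5 brain and at 4.72 to 5.73 CPM in E13.5 spinal cord, with 3.76 to 4.86 CPM over the 6 P7 libraries. E13.5 brain alone was low. It rose in brain by 1.80 ± 0.15, and brain minus spinal cord at E13.5 was −2.07 ± 0.15 (limma adjusted p = 4.46e-07 and 7.48e-07). Epha5, an ephrin-A receptor, was higher in brain at E13.5, at 167, 184 and 137 CPM against 49.1, 58.6 and 53.0 CPM in spinal cord. That difference was 1.59 ± 0.11 (adjusted p = 5.83e-07). At P7 the groups lay at 70.4 to 81.5 CPM and 58.2 to 59.1 CPM, and the change in brain of −1.07 was less than 2-fold after TMM rescaling, −0.88, and without E13.5 brain replicate 2, −0.98.

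Epha1 stood low in all groups, at 2.23, 1.71 and 2.20 CPM in E13.5 brain, 0.953, 1.47 and 1.69 CPM in E13.5 spinal cord, 0.182, 0.231 and 0.528 CPM in P7 brain and 3.86, 4.81 and 3.13 CPM in P7 spinal cord. P7 spinal cord was the highest group and P7 brain the lowest, with no overlap of regions at P7. Its change was −1.66 ± 0.22 in brain and 1.25 ± 0.22 in spinal cord (limma adjusted p = 3.13e-05 and 0.000249), and the regional difference at P7 was −2.45 ± 0.22 (adjusted p = 7.61e-06). Zyx, on the other strand, shares 236 exonic bases with Epha1 and had a mean of 39.2 CPM, and no source used here gives the strand setting of the counting, so these values are uncertain. Ephb3 was called in no comparison, and Ephb2 fell in brain by 1.71 with a change of −0.75 in spinal cord.

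**Figure D4:**
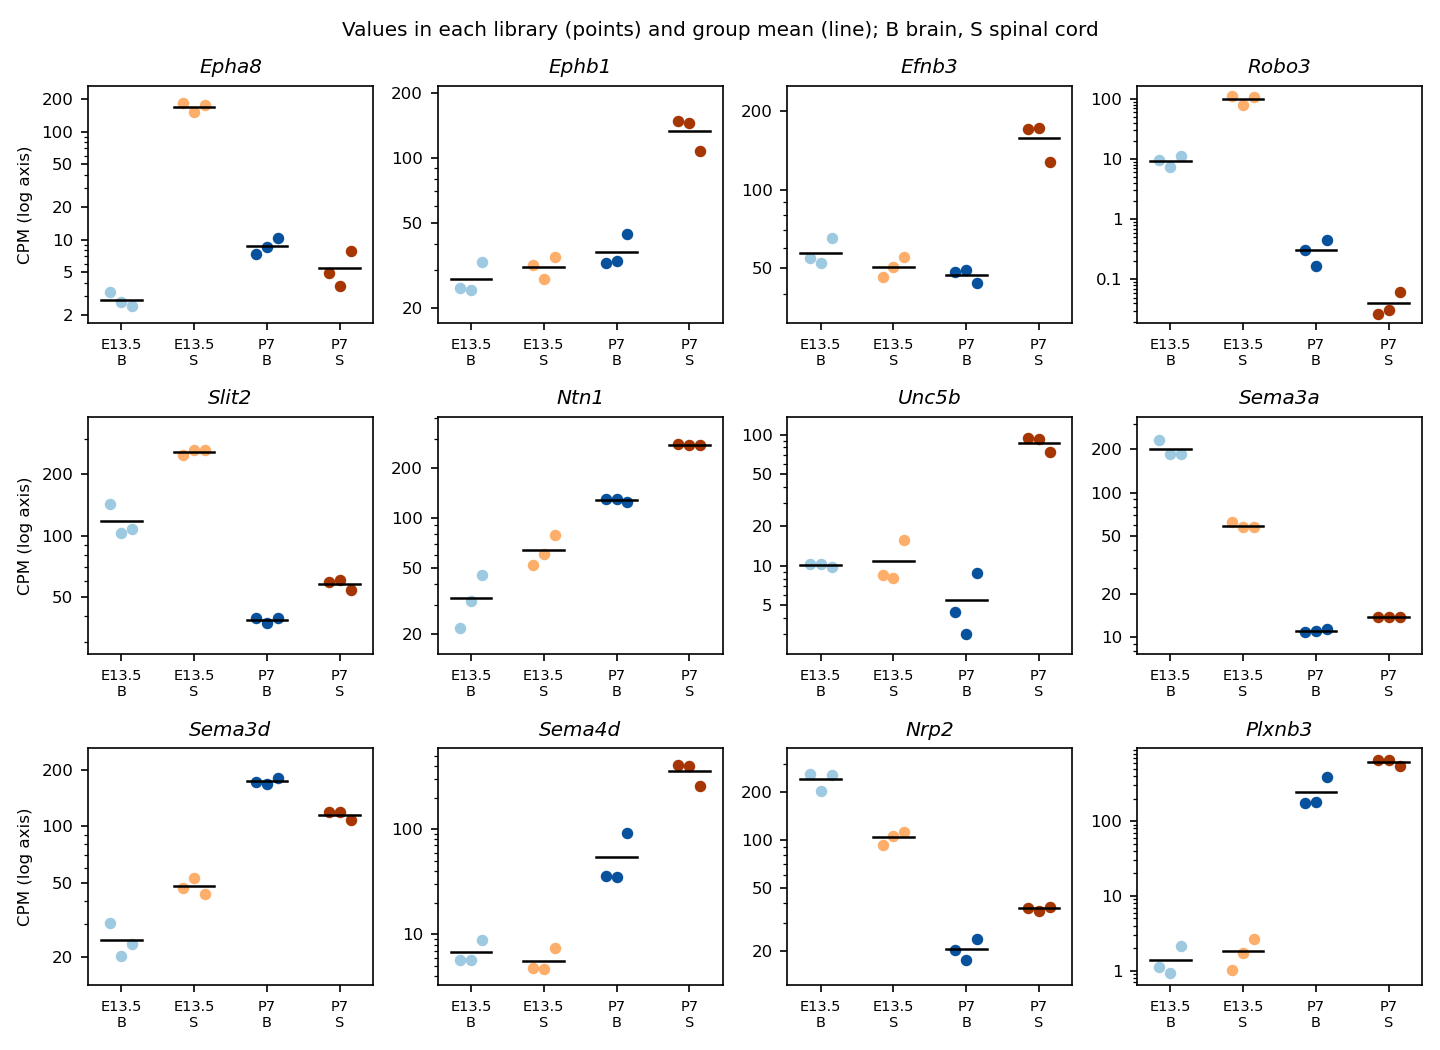
Level in CPM (log axis, with its own range in each panel) of 12 genes in each library, with 1 point per library and a line at the group mean. The P7 spinal cord libraries lie above all others for Ephb1, Efnb3, Unc5b and Sema4d, and the E13.5 spinal cord libraries for Epha8 and Robo3.

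Slits are secreted proteins that repel axons at the midline, with Robo1 and Robo2 as their main receptors. Each of the 3 Slits fell in both regions, and 3 of 4 Robo receptors fell in brain and 4 of 4 in spinal cord. The median change was −2.04 and −2.01 for the Slits and −2.04 and −2.31 for the Robo receptors. The Slit sum in CPM per kb was 13.7 ± 1.43 in brain and 25.9 ± 3.06 in spinal cord at E13.5, and 3.53 ± 0.334 in brain and 8.16 ± 0.358 in spinal cord at P7. The Robo sum was 26.8 ± 2.29, 46.6 ± 3.53, 8.23 ± 0.139 and 7.56 ± 0.351.

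Slit2 was at 143, 103 and 107 CPM in E13.5 brain and at 249, 265 and 264 CPM in E13.5 spinal cord, and at 39.2, 37.3 and 39.2 CPM in P7 brain and 58.8, 60.3 and 53.7 CPM in P7 spinal cord. No 2 groups overlapped. The change with age was −1.58 ± 0.11 in brain and −2.16 ± 0.11 in spinal cord, and brain minus spinal cord at E13.5 was −1.15 ± 0.11 (limma adjusted p = 1.17e-07, 4.79e-09 and 9.80e-06).

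Slit3 was lower in brain at both ages. It was at 19.7, 12.6 and 12.7 CPM in E13.5 brain against 28.5, 32.7 and 48.1 CPM in spinal cord, and at 2.18, 2.18 and 4.25 CPM in P7 brain against 9.15, 7.46 and 8.72 CPM in spinal cord. The regional difference was −1.25 ± 0.26 at E13.5 and −1.46 ± 0.26 at P7 (limma adjusted p = 0.00261 and 0.00123). Slit1 changed by −2.04 in brain (37.2 to 41.6 CPM at E13.5, 7.97 to 9.796 CPM at P7) and by −1.08 in spinal cord (52.4 to 65.3 CPM, 25.3 to 28.1 CPM), the latter being −0.98 without E13.5 spinal cord replicate 3. Its regional difference at P7 was −1.50 ± 0.11 (adjusted p = 1.49e-06).

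Robo3, which lets commissural axons reach and cross the midline, showed the largest fall of any member. It was at 9.50, 7.38 and 11 CPM in E13.5 brain and at 112, 78.5 and 107 CPM in E13.5 spinal cord. At P7 it was at 0.303, 0.165 and 0.449 CPM in brain and at 0.0270, 0.0308 and 0.0620 CPM in spinal cord. The 3 P7 spinal cord libraries held 1, 1 and 2 reads of Robo3 against 4288 reads over the 3 E13.5 spinal cord libraries, a ratio of 2411 in CPM with a 95% exact counting interval of 941 to 8852, which covers counting error only. The E13.5 regions did not overlap, and brain minus spinal cord at E13.5 was −3.35 ± 0.20 (limma adjusted p = 1.32e-07).

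Robo1 and Robo2, the main Slit receptors of axons, fell in both regions. Robo1 was at 251, 210 and 219 CPM in E13.5 brain and at 388, 352 and 268 CPM in E13.5 spinal cord, and at 107 to 114 CPM and 93.8 to 105 CPM at P7. Robo2 was at 184 to 216 CPM and 172 to 231 CPM at E13.5, and at 22.3 to 24.2 CPM and 24.2 to 27.5 CPM at P7. Robo2 changed by −3.05 ± 0.11 in brain and by −2.87 ± 0.11 in spinal cord (limma adjusted p = 8.04e-10 and 7.50e-10), and Robo1 by −1.02 ± 0.13 and −1.75 ± 0.13. The Robo1 change in brain was −0.83 after TMM rescaling, −0.94 without E13.5 brain replicate 1 and −0.99 without P7 brain replicate 3, each less than 2-fold. Robo1 held 81.9% of the Robo sum in brain and 78.6% in spinal cord at P7, against 51.1% and 43.7% at E13.5. Robo4, a Robo of vessels, had group means of 0.476 to 2.03 CPM, and its change in spinal cord of −1.31 was −0.99, less than 2-fold, with a pseudocount of 1.

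Netrins are secreted relatives of laminin, and netrin-Gs are their lipid-anchored relatives at synapses. Of the 5 members, 1 rose and 2 fell in brain, and 3 rose and 2 fell in spinal cord, with a median change of −0.31 and 1.497. The family sum in CPM per kb was 11.5 ± 2.33 in brain and 15.7 ± 1.66 in spinal cord at E13.5, and 26.5 ± 1.46 in brain and 49.2 ± 0.669 in spinal cord at P7. Ntn1 held 44.7%, 64.4%, 77.2% and 89.1% of it in the same order.

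Ntn1, the floor plate attractant of commissural axons, was at 21.6, 31.6 and 45.3 CPM in E13.5 brain and 52.3, 60.8 and 79.0 CPM in E13.5 spinal cord. In the pups it was at 130, 131 and 124 CPM in brain and 279, 273 and 273 CPM in spinal cord. The 4 groups did not overlap. The rise was 2.01 ± 0.21 in brain and 2.12 ± 0.21 in spinal cord (limma adjusted p = 3.82e-06 and 1.60e-06). The P7 libraries of brain were lower than those of spinal cord, with a difference of −1.10 ± 0.21 (adjusted p = 0.00208) and −0.91 after TMM rescaling, less than 2-fold.

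The netrin-Gs had opposite patterns. Ntng1 was at 10.2, 5.45 and 7.72 CPM in E13.5 brain, 33.5, 34.9 and 26.5 CPM in E13.5 spinal cord, 3.36, 3.04 and 3.04 CPM in P7 brain and 2.38, 1.82 and 2.20 CPM in P7 spinal cord. Ntng2 was at 5.27, 4.66 and 3.86 CPM in E13.5 brain, 0.655, 1.07 and 1.18 CPM in E13.5 spinal cord, 4.09, 3.21 and 3.49 CPM in P7 brain and 8.21, 8.48 and 6.76 CPM in P7 spinal cord. E13.5 spinal cord was the highest group for Ntng1 and the lowest for Ntng2, with no overlap of regions at either age for either gene. In spinal cord Ntng1 changed by −3.61 ± 0.20 and Ntng2 by 2.52 ± 0.18 (limma adjusted p = 7.68e-09 and 9.39e-08). Brain minus spinal cord at E13.5 was −1.99 ± 0.20 for Ntng1 and 1.80 ± 0.18 for Ntng2 (adjusted p = 1.17e-05 and 1.42e-05).

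The fall of Ntng1 in brain, −1.14, was less than 2-fold after TMM rescaling, −0.98, and without E13.5 brain replicate 1, −0.94. The lower Ntng2 level of P7 brain, −1.02 ± 0.18, was less than 2-fold after TMM rescaling, −0.85, and without P7 brain replicate 2 or P7 spinal cord replicate 1 or 2, −0.95 to −0.99. Ntng2 shares 558 exonic bases with the transcript 6530402F18Rik on the same strand, which had a mean of 6.33 CPM, so its reads cannot be fully told apart from that gene's.

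Ntn4, a netrin of basement membranes, was at 9.88, 14.6 and 15.2 CPM in E13.5 brain and 4.11, 3.33 and 4.22 CPM in E13.5 spinal cord, and at 13.8 to 20.4 CPM and 11.6 to 12 CPM at P7. The difference at E13.5 was 1.63 ± 0.18 and the rise in spinal cord 1.497 ± 0.18 (limma adjusted p = 2.92e-05 and 9.32e-06). Its interaction of −1.10 was less than 2-fold after TMM rescaling, −0.91, and without E13.5 brain replicate 3, −0.99, or P7 brain replicate 3, −0.94. Ntn5 was near the floor at P7, at 0.185 to 0.231 CPM in brain and with 1 read in 1 of the 3 spinal cord libraries, against 44 reads in E13.5 spinal cord. Its exons overlap those of Sec1 on the other strand by 23.4%, and both Ntn5 calls with age were lost with a pseudocount of 1, where the changes were −0.91 and −0.87.

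Dcc mediates attraction to netrin and the Unc5 receptors mediate repulsion. Of these 5 receptors, 2 rose and 2 fell in brain, and 2 rose and 2 fell in spinal cord, and none was called between regions at E13.5. The sum in CPM per kb was 19.6 ± 1.18 in brain and 24.6 ± 0.993 in spinal cord at E13.5, and 19.3 ± 0.976 in brain and 36.3 ± 2.88 in spinal cord at P7. Dcc held the largest share at E13.5, 49.5% in brain and 40.1% in spinal cord, and Unc5c at P7, 56.0% and 38.7%.

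Unc5b had the largest regional difference of any member at P7. It was at 10.3, 10.3 and 9.87 CPM in E13.5 brain, 8.58, 8.09 and 15.9 CPM in E13.5 spinal cord and 4.48, 3.04 and 8.87 CPM in P7 brain. In P7 spinal cord it was at 94, 92.7 and 74.3 CPM, far above every other library. The change in spinal cord was 3.00 ± 0.31, the regional difference at P7 was −3.99 ± 0.31 and the interaction was −3.96 ± 0.44 (limma adjusted p = 2.22e-06, 2.22e-06 and 3.41e-05). In P7 brain the highest library was replicate 3, which also had 4079 CPM of committed and myelinating markers against 1689 and 1699 CPM in the other two. In P7 spinal cord the lowest was replicate 3, where those markers were lowest too, and whether the makeup of the pools bears on Unc5b was not tested.

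Unc5d ran the other way. It was at 19.0, 19.5 and 16.6 CPM in E13.5 brain and 16.0, 20.9 and 18.2 CPM in E13.5 spinal cord, and at 7.97, 7.24 and 7.37 CPM in P7 brain and 1.67, 2.59 and 1.30 CPM in P7 spinal cord. The regions overlapped at E13.5 and not at P7. It changed by −1.23 ± 0.18 in brain and by −3.03 ± 0.18 in spinal cord, and brain minus spinal cord at P7 was 1.80 ± 0.18 (limma adjusted p = 7.46e-05, 1.60e-08 and 1.92e-05).

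Dcc was at 111, 132 and 141 CPM in E13.5 brain and 143, 115 and 132 CPM in E13.5 spinal cord, and at 49.8 to 51.9 CPM and 41.8 to 44.7 CPM at P7. It changed by −1.32 ± 0.10 and −1.58 ± 0.10 (limma adjusted p = 2.66e-07 and 3.39e-08). Unc5a rose by 1.42 ± 0.22 in brain and by 1.74 ± 0.22 in spinal cord, from group means of 4.31 and 6.05 CPM to 12.3 and 20.5 CPM. Unc5c was at 102, 98.6 and 101 CPM in E13.5 brain and at 207, 201 and 212 CPM in P7 brain, a rise of 1.04 ± 0.10 (adjusted p = 2.17e-06). In spinal cord Unc5c had group means of 182 and 268 CPM and a change of 0.57, less than 2-fold.

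**Figure D5:**
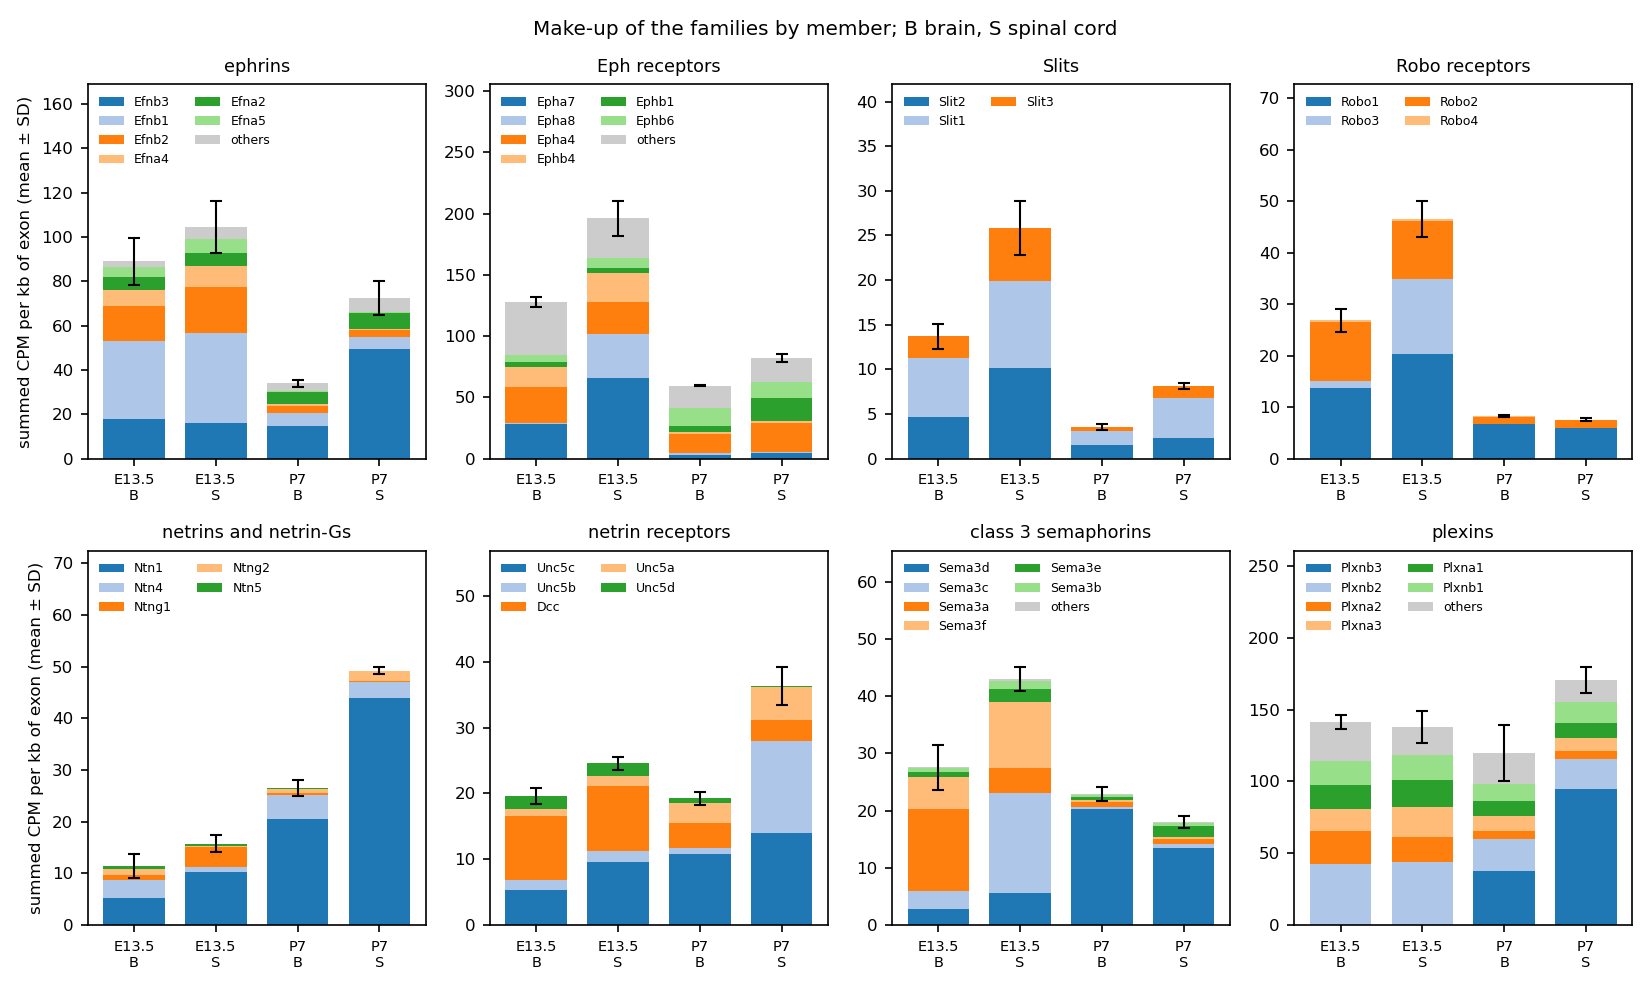
Sum over the members of 8 families in CPM per kb of exon, as stacked bars of the mean of each gene with an error bar for the SD of the sum over 3 libraries, by group. Efnb3, Ntn1, Sema3d and Plxnb3 make up more of their families at P7 than at E13.5, and the Slit and Robo sums are lower at P7 than at E13.5 in both regions.

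Class 3 semaphorins are secreted and mostly repellent. Of the 7, 1 rose and 3 fell in brain, 1 rose and 4 fell in spinal cord, and 1 was higher and 4 were lower in brain than in spinal cord at E13.5. The class median of the change with age was −0.78 and −1.21. The leading member differed between groups. In CPM per kb, Sema3a held 52.4% of the class sum in brain and Sema3c 41.0% in spinal cord at E13.5, while Sema3d held 88.4% in brain and 74.8% in spinal cord at P7. The sum itself was 27.6 ± 3.89 in brain and 42.9 ± 2.13 in spinal cord at E13.5, and 22.9 ± 1.24 and 18.0 ± 1.08 at P7.

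Sema3a, which repels sensory and cortical axons through neuropilin-1, was at 230, 184 and 186 CPM in E13.5 brain and 62.4, 57.4 and 57.7 CPM in E13.5 spinal cord. At P7 it was at 10.9, 11 and 11.3 CPM in brain and 13.7, 13.8 and 13.8 CPM in spinal cord. The groups were well separated at E13.5 and close at P7. The change in brain, −4.11 ± 0.09, was the largest fall of any member there, and that in spinal cord was −2.06 ± 0.09 (limma adjusted p = 3.40e-11 and 1.72e-09). Brain minus spinal cord at E13.5 was 1.74 ± 0.09 (adjusted p = 6.42e-08).

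Sema3c, which is known for its part in heart outflow tract development, had the reverse regional pattern at E13.5, at 25.5, 20.1 and 19.3 CPM in brain and 135, 116 and 125 CPM in spinal cord. Its P7 values were 2.73, 2.94 and 2.93 CPM in brain and 4.43, 3.83 and 5.89 CPM in spinal cord. No library of one region overlapped the other at either age. It changed by −2.71 ± 0.15 in brain and by −4.61 ± 0.15 in spinal cord, and the difference at E13.5 was −2.52 ± 0.15 (limma adjusted p = 1.58e-08, 2.16e-10 and 1.58e-07).

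Sema3f, the main ligand of neuropilin-2, was at 33.1, 24.7 and 29.9 CPM in E13.5 brain and 50.6, 53.4 and 76.3 CPM in E13.5 spinal cord, and at 1.39 to 2.83 CPM and 1.42 to 1.77 CPM at P7. It changed by −3.49 ± 0.22 and −4.86 ± 0.22 (limma adjusted p = 3.78e-08 and 1.56e-09). Its regional difference at E13.5 of −1.01 was less than 2-fold without E13.5 brain replicate 2, −0.90, or E13.5 spinal cord replicate 3, −0.83, and by limma-voom, −0.97. Sema3b, at 2.37 to 3.71 CPM in E13.5 brain and 6.07 to 7.47 CPM in E13.5 spinal cord, had a difference of −1.01 that was no longer called without E13.5 brain replicate 2 or E13.5 spinal cord replicate 1 or 2, the lowest value being −0.84.

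Sema3d was the class 3 semaphorin that rose. It was at 30.4, 20.2 and 23.5 CPM in E13.5 brain and 46.8, 52.8 and 43.5 CPM in E13.5 spinal cord, and at 173, 167 and 181 CPM in P7 brain and 119, 119 and 108 CPM in P7 spinal cord. Spinal cord was above brain at E13.5 and below it at P7, without overlap at either age. The rise was 2.81 ± 0.13 in brain and 1.27 ± 0.13 in spinal cord, and the interaction was 1.54 ± 0.18 (limma adjusted p = 3.17e-09, 1.75e-06 and 5.34e-05). Neither regional difference alone was more than 2-fold, at −0.95 and 0.59.

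Sema3e, which signals through plexin-D1 without a neuropilin, was lower in brain at both ages. It was at 8.74, 6.32 and 5.74 CPM in E13.5 brain against 23.8, 19.6 and 17.4 CPM in spinal cord, and at 2.70, 2.84 and 6.79 CPM in P7 brain against 18.4, 21.2 and 12.4 CPM in spinal cord. The difference was −1.49 ± 0.30 at E13.5 and −2.03 ± 0.30 at P7 (limma adjusted p = 0.00218 and 0.000348). At P7 replicate 3 was the highest brain and the lowest spinal cord library. Sema3g had group means of 0.559 to 1.60 CPM and was called in no comparison.

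Neuropilins are co-receptors that class 3 semaphorins need to act through plexin-A receptors, and they also bind vascular growth factors. Both fell in both regions, and they had opposite regional differences at E13.5. Nrp1 was at 117, 97.5 and 103 CPM in E13.5 brain and 275, 274 and 205 CPM in E13.5 spinal cord, while Nrp2 was at 260, 203 and 257 CPM in brain and 93.2, 105 and 112 CPM in spinal cord. At P7 Nrp1 was at 25.6 to 32.6 CPM in brain and 25.7 to 43.6 CPM in spinal cord, and Nrp2 at 17.5 to 23.7 CPM and 35.9 to 38.0 CPM. The regions did not overlap for either gene at E13.5, and at P7 they overlapped for Nrp1.

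The change of Nrp1 was −1.85 ± 0.19 in brain and −2.99 ± 0.19 in spinal cord, and that of Nrp2 was −3.52 ± 0.13 and −1.47 ± 0.13 (limma adjusted p = 2.91e-06, 2.45e-08, 5.84e-10 and 4.07e-07). Brain minus spinal cord at E13.5 was −1.24 ± 0.19 for Nrp1 and 1.205 ± 0.13 for Nrp2 (adjusted p = 0.000315 and 1.70e-05). Of the class 3 semaphorins called between regions at E13.5, Sema3a was higher in brain, as Nrp2 was. Sema3b, Sema3c, Sema3e and Sema3f were higher in spinal cord, as Nrp1 was. Sema3a and its receptor Nrp1 thus lay on opposite sides, as did Sema3f and Nrp2. In CPM per kb the pair summed to 31.1 ± 3.55 and 34.4 ± 3.48 at E13.5, and to 4.70 ± 0.620 and 6.39 ± 1.10 at P7.

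Semaphorins of classes 4 to 7 are bound to the membrane and act on plexins without neuropilins in most cases. More of them rose than fell. Of 13, 7 rose and 1 fell in brain, and 8 rose and 1 fell in spinal cord, with a median change of 1.01 and 1.39. Their sum in CPM per kb was 63.4 ± 4.20 in brain and 75.8 ± 3.82 in spinal cord at E13.5, and 112 ± 10 in brain and 206 ± 25.8 in spinal cord at P7. The largest share belonged to Sema4c at E13.5 (17.5% in brain and 19.8% in spinal cord), to Sema6d in P7 brain (20.6%) and to Sema4d in P7 spinal cord (22.1%).

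Sema4d, a ligand of plexin-B1 that is also found on lymphocytes, was at 5.70, 5.75 and 8.85 CPM in E13.5 brain and 4.76, 4.71 and 7.42 CPM in E13.5 spinal cord. At P7 it was at 36.1, 35.5 and 92.5 CPM in brain and 408, 401 and 255 CPM in spinal cord. The 2 E13.5 groups overlapped, and the P7 groups did not. The rise was 2.80 ± 0.34 in brain and 5.85 ± 0.34 in spinal cord, and the regional difference at P7 was −2.81 ± 0.34 (limma adjusted p = 1.36e-05, 1.17e-08 and 7.51e-05). The interaction was −3.05 ± 0.48 (adjusted p = 0.000382). Replicate 3 was again the highest P7 brain and the lowest P7 spinal cord library, as it was for the committed and myelinating markers, whose part in these values was not tested.

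Sema6a, a transmembrane ligand of plexin-A2 and plexin-A4, was at 77.3, 74.2 and 106 CPM in E13.5 brain, 85.4, 79.8 and 76.4 CPM in E13.5 spinal cord and 86.9, 89.4 and 119 CPM in P7 brain. In P7 spinal cord it was at 333, 333 and 233 CPM. E13.5 brain overlapped with E13.5 spinal cord and with P7 brain, and the P7 spinal cord libraries stood above the other 9. The rise in spinal cord was 1.87 ± 0.17, the regional difference at P7 −1.60 ± 0.17 and the interaction −1.67 ± 0.24 (limma adjusted p = 8.54e-07, 3.46e-05 and 0.000248).

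Sema5a, whose known receptor is plexin-B3, was at 81.4, 69.7 and 98.6 CPM in E13.5 brain and 190, 167 and 159 CPM in E13.5 spinal cord, and at 358, 353 and 425 CPM in P7 brain and 750, 760 and 655 CPM in P7 spinal cord. The 4 groups did not overlap. The rise was 2.19 ± 0.14 in brain and 2.07 ± 0.14 in spinal cord (limma adjusted p = 3.78e-08 and 3.60e-08). Brain minus spinal cord at E13.5 was −1.05 ± 0.14 (adjusted p = 9.12e-05), and less than 2-fold, −0.93 and −0.98, without E13.5 brain replicate 2 or E13.5 spinal cord replicate 1.

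Sema5b, the close relative of Sema5a, rose by 1.12 ± 0.11 in brain and by 2.32 ± 0.11 in spinal cord (limma adjusted p = 2.53e-06 and 2.75e-09). It was at 40.9, 56.5 and 53.6 CPM in E13.5 brain and 25.4, 28 and 23.8 CPM in E13.5 spinal cord, with 107 to 112 CPM and 125 to 133 CPM at P7. The ages did not overlap, and the rise in brain was 0.98, less than 2-fold, without E13.5 brain replicate 1. Sema6d rose by 1.14 and 2.06, to the P7 group means of 242 and 267 CPM. Sema6b rose by 2.06 ± 0.21 in brain (7.32, 10.8 and 11.9 CPM at E13.5, 44.0, 43.2 and 40.5 CPM at P7) and by 1.61 in spinal cord (adjusted p = 2.62e-06 and 1.63e-05).

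Sema6c was the member of these classes that fell. It was at 44.3, 47.6 and 37.1 CPM in E13.5 brain and 84.9, 88.2 and 93.1 CPM in E13.5 spinal cord, and at 15.5 to 18.1 CPM and 12.9 to 14.1 CPM at P7. It changed by −1.36 ± 0.10 in brain and by −2.65 ± 0.10 in spinal cord (limma adjusted p = 2.58e-07 and 6.90e-10). Its regional difference at E13.5 was −1.04 ± 0.10 (adjusted p = 1.27e-05), and −0.94 without E13.5 brain replicate 3. Sema4a rose by 1.01 and 1.17, the rise in brain being less than 2-fold, 0.81 to 0.98, without E13.5 brain replicate 1 or 3 or P7 brain replicate 3. Sema4f rose in brain by 1.09 and Sema7a, a lipid-anchored semaphorin that binds plexin-C1, in spinal cord by 1.39. Sema4b, Sema4c and Sema4g were called in no comparison.

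Plexins are the receptors of semaphorins, alone or with neuropilins. Of the 9 plexins, 1 rose and 2 fell in brain and 1 rose and 3 fell in spinal cord. These counts lie near the shares over all genes, 27.7% in brain and 35.1% in spinal cord. No plexin was called between regions at E13.5, and for none was the interaction called, beside 8.71% and 16.3% of all genes. The sum in CPM per kb was 142 ± 5 in brain and 138 ± 11.1 in spinal cord at E13.5, and 120 ± 19.5 in brain and 171 ± 8.99 in spinal cord at P7. Plxnb2, the receptor of Sema4c, held the largest share at E13.5, 29.8% in brain and 31.2% in spinal cord. Plxnb3 held 0.151% and 0.199% at E13.5, and 30.6% and 55.4% at P7.

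Plxnb3 had the largest rise of any member in both regions. It was at 1.14, 0.922 and 2.15 CPM in E13.5 brain and 1.01, 1.73 and 2.70 CPM in E13.5 spinal cord. In the P7 libraries it was at 176, 178 and 383 CPM in brain and 654, 646 and 546 CPM in spinal cord. The E13.5 groups overlapped and the P7 groups did not. The rise was 6.97 ± 0.33 in brain and 8.12 ± 0.33 in spinal cord (limma adjusted p = 4.25e-09 and 8.21e-10).

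The regional difference of Plxnb3 at P7 was −1.42 ± 0.33 (limma adjusted p = 0.00663). With P7 replicates 1 and 2 averaged into 1 it was −1.19 with an adjusted p of 0.101. Replicate 3 was the highest P7 brain library for Plxnb3 and the lowest P7 spinal cord library, the same order as for Unc5b, Sema4d and the committed and myelinating markers. The interaction was −1.15 ± 0.46 (adjusted p = 0.0676).

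Plxna2, a receptor of Sema6a and of class 3 semaphorins with a neuropilin, changed by −1.97 ± 0.09 in brain and by −1.77 ± 0.09 in spinal cord (limma adjusted p = 3.45e-09 and 4.43e-09). It was at 380, 408 and 392 CPM in E13.5 brain and 317, 331 and 270 CPM in E13.5 spinal cord, and at 96.2 to 104 CPM and 87.3 to 91.6 CPM at P7. The ages did not overlap. Plxna4 fell in brain by 1.09 ± 0.09 (103 to 130 CPM at E13.5, 53.4 to 58.1 CPM at P7), which was −0.90 after TMM rescaling, and Plxna3 changed in spinal cord by −1.10 ± 0.10 (156 to 169 CPM, 70.6 to 81.8 CPM). Plxnb2 changed by −0.95 in brain and −1.03 in spinal cord, the latter being −0.87 without E13.5 spinal cord replicate 3.

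Plxnd1, the receptor of Sema3e, was higher in brain than in spinal cord, at 41.1, 32.9 and 37.6 CPM against 16.5, 17.4 and 27.8 CPM at E13.5 and at 20.7, 23.5 and 21.0 CPM against 11.1, 9.99 and 10.5 CPM at P7. The regions did not overlap at either age, and Sema3e lay the other way. The difference was 0.87 ± 0.17 at E13.5, less than 2-fold, and 1.01 ± 0.17 at P7 (limma adjusted p = 0.00167 and 0.000825). The P7 difference was 0.95 and 0.97 without P7 brain replicate 2 or P7 spinal cord replicate 2. Plxna1, Plxnb1 and Plxnc1 were called in no comparison, and Plxnc1 had group means of 116 and 119 CPM in brain and 75.8 and 76.4 CPM in spinal cord at E13.5 and P7.

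Other genes of these pathways were taken from 3 lists. Of 16 further guidance ligands and receptors, 7 rose and 4 fell in brain and 7 rose and 6 fell in spinal cord, with median changes of 0.59 and 0.70. Of these 16, 2 were called between regions at E13.5 and 3 at P7, beside 8.71% and 6.62% of all genes. Lrrc4c, the partner of Ntng1, rose by 3.21 ± 0.09 in brain (12.8 to 122 CPM) and Lrrc4, the partner of Ntng2, by 2.63 ± 0.18 in spinal cord (13.8 to 87.3 CPM), with limma adjusted p = 8.01e-11 and 4.64e-08. Dscam, a netrin receptor, rose by 2.58 ± 0.14 in brain. Cntn2, an adhesion protein of axons, changed by −3.42 ± 0.15 in brain and by −4.40 ± 0.15 in spinal cord. Flrt2, a ligand of Unc5 receptors, changed by −1.52 and −2.37, and Rgmb, a ligand of neogenin, fell by 1.66 in brain. Between regions, Flrt3, another ligand of Unc5 receptors, was higher in E13.5 brain, by 1.22, and Chl1, an adhesion protein that joins neuropilin-1, was higher in brain at P7 by 3.48 ± 0.18 (271 ± 50.2 CPM against 24.0 ± 4.97 CPM). Draxin, a repellent that binds Dcc, was higher in brain at P7 by 1.31 and Rgmb was lower, with a difference of −1.18.

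Of 5 collapsin response mediators, which carry semaphorin signals to the cytoskeleton, none rose and 1 fell in brain and 1 rose and 2 fell in spinal cord, with median changes of 0.54 and 0.04. Dpysl4 was lower in brain at E13.5, with a difference of −1.50 ± 0.11 (limma adjusted p = 8.84e-07). Of 36 effectors downstream of guidance receptors, 4 rose and 1 fell in brain and 8 rose and 5 fell in spinal cord, with median changes of −0.03 and 0.06. Among all genes 27.7% and 35.1% were called, a larger share than of the effectors in brain and a similar one in spinal cord. Between regions, 4 effectors were called at E13.5 and 2 at P7, beside 8.71% and 6.62% of all genes. Fyn, a kinase downstream of Dcc that acts in myelination, rose by 2.56 ± 0.17 and 3.44 ± 0.17, from 128 and 99.7 CPM to 764 and 1078 CPM. Ablim1, an actin-binding protein, changed in spinal cord by −3.37. At E13.5 Ablim1 and Ablim3 were lower in brain, with differences of −2.40 and −1.55. At P7 Mical2, of a family of actin-oxidising enzymes downstream of plexins, was higher in brain by 2.25. The interaction was called for 2 of the 16 further guidance genes, 0 of the 5 mediators and 4 of the 36 effectors, beside 16.3% of all genes. Among those called were Chl1 at 3.41, Ablim1 at 3.36 and Mical2 at 2.20.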

How the data were processed

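Sample titles gave groups and replicate numbers. The authors mapped stranded read pairs with STAR 2.5.0a to mm10 and counted them per GENCODE M8 gene with featureCounts 1.5.0-p1, sharing multi-mapping reads. The strand setting of the counting is not given in the sources used here. Deposited values are CPM on a linear scale, for which the authors divided each count by a rescaled library size. In 3 of the 12 columns these deposited values sum to more than CPM can and were handled as a signal on the same scale. All values were whole multiples of 1 read within 0.01, so reads were recovered, and 3 reads were worth 0.0792 to 0.506 CPM per library.

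Values were tested as log2(CPM + 0.5) with limma 3.58.1 (trend) in R 4.3.3, with 1 mean per group over 12 libraries, on the 18319 genes that reached 0.7 CPM in 3 or more libraries. P-values were adjusted over all of them by the Benjamini-Hochberg method. Calls needed an adjusted p under 0.05 and more than a 2-fold change, and fold changes on this scale understate those of low genes. On simulated counts 200 of 200 genes changed 4-fold were recovered in the comparison of ages in brain among 18319, with 0 false calls. Exon lengths and positions came from GENCODE on GRCm38.

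The members and lists were chosen with earlier results of these data known. Values in every library were given for called members among the 3 largest changes of their family in a comparison and for the family's leading member per group. Of the lists of other guidance genes, the 3 called genes that moved furthest each way in each comparison were named, except for 1 that is not reported here. Alternatives were TMM and median-ratio rescaling, pseudocounts of 0.1 and 1, no filter, limma-voom, edgeR 4.0.16 and DESeq2 1.42.0 on recovered reads, a replicate block, leaving out each library, averaging P7 replicates 1 and 2, and no fold requirement.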

Additional observations from a re-analysis of the deposited data

Results flagged for a closer look

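The interaction of region and age was called in limma (adjusted p under 0.05 and more than 2-fold) for 26 members, meaning that the change from E13.5 to P7 differed between brain and spinal cord. Each value here is the log2 change in brain minus that in spinal cord. Among the Eph receptors it was 6.38 for Epha8, −2.91 for Epha1, 2.03 for Epha10, 1.60 for Epha6, −1.65 for Ephb1, −1.25 for Epha3, −1.21 for Epha5 and 1.02 for Ephb4. Among the ephrins it was −1.88 for Efnb3 and 1.11 for Efna5. Robo3, of the Robo receptors, had 3.91. Among the netrins, netrin-Gs and their receptors it was −3.96 for Unc5b, −2.83 for Ntng2, 2.46 for Ntng1, 1.80 for Unc5d and −1.10 for Ntn4. Among the semaphorins it was −3.05 for Sema4d, −2.04 for Sema3a, 1.90 for Sema3c, −1.67 for Sema6a, 1.54 for Sema3d, 1.37 for Sema3f, 1.30 for Sema6c and −1.20 for Sema5b. The neuropilins had opposite signs, −2.05 for Nrp2 and 1.14 for Nrp1. No plexin and no Slit had a call. After median-ratio rescaling the values for Epha3, Epha5, Sema5b and Ntn4 were −0.94, −0.89, −0.89 and −0.80, less than 2-fold. The value for Ephb4 was as low as 0.80 and not called without E13.5 brain replicate 1 or 2, E13.5 spinal cord replicate 3, P7 brain replicate 3, or P7 spinal cord replicate 1 or 2. That for Efna5 was 0.92 to 1.09 and not called without E13.5 brain replicate 2 or 3, E13.5 spinal cord replicate 1 or 2, P7 brain replicate 3, or P7 spinal cord replicate 1 or 2.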

How the results depend on the processing

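With no fold requirement 42 members were called for region at E13.5, 38 for region at P7 and 40 for the interaction, in place of 20, 15 and 26. Under each other setting the total of called members stayed within 1.5 times that reported, while the number higher in brain at P7 ranged from 1 to 6, in place of 2. Leaving out 1 library gave 41 to 45 members for age in brain, 48 to 50 for age in spinal cord, 17 to 22 for region at E13.5, 12 to 16 for region at P7 and 24 to 28 for the interaction. Without E13.5 spinal cord replicate 3 the count for age in spinal cord was 48, 19 higher and 29 lower. The deposited scaling shifted the median of all genes for age in brain, region at P7 and the interaction from −0.02, −0.02 and −0.07 after TMM rescaling to −0.19, −0.19 and −0.24. Only the P7 brain libraries were affected. Their deposited library sizes were 13.1% to 16.3% above those of TMM, relative to the other libraries, which lowers their CPM. After TMM rescaling 25 members were lower at P7 in brain, in place of 30, and 10 were lower in brain than spinal cord at P7, in place of 13. Over 155 called results of 59 members and 3410 comparisons with an alternative, 79 lost the call, in 28 results, and 0 changed sign.

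The replicate number as a block gave 45, 49, 20, 15 and 27 members. Averaging P7 replicates 1 and 2 gave 45, 50, 20, 12 and 24. Libraries of one age with the same number correlated at 0.01 to 0.41 in their deviations from group means, with a mean of 0.15. Those of one age with different numbers correlated at −0.44 to 0.20, with a mean of −0.07. At E13.5 the same-number values were 0.31, 0.08 and 0.41. Whether the numbers pair brain with spinal cord samples of one age is not stated, and these values do not settle it. Same-number libraries of different ages, at −0.21 to 0.09, come from different animals and cannot bear on it. Depth limits the low genes: Robo3 and Ntn5 in P7 spinal cord rested on 4 reads and 1 read.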

Other observations

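The A and B classes of ephrins and Eph receptors, summed in CPM per kb of exon over their members, differed in how much of their E13.5 level was present at P7. The EphA receptors summed to 86.3 ± 6.18 (SD, n = 3) in brain and 145 ± 24.6 in spinal cord at E13.5, and to 27.2 ± 0.436 and 36.7 ± 0.162 at P7. The EphB receptors summed to 41.9 ± 6.86 and 50.8 ± 10.7 at E13.5 and to 32.2 ± 0.671 and 45.4 ± 3.40 at P7, where the spinal cord groups of the 2 ages lay within their spread. The leading EphB receptor was Ephb4 at E13.5, with 38.0% of the EphB sum in brain and 46.1% in spinal cord, Ephb6 in P7 brain (44.2%) and Ephb1 in P7 spinal cord (41.7%). The ephrin-B ligands summed to 69.0 ± 9.14 and 77.3 ± 9.28 at E13.5 and to 23.9 ± 1.09 and 57.9 ± 6.41 at P7, with Efnb3 holding 62.4% and 85.1% of the P7 sums. The ephrin-A ligands summed to 20.0 ± 1.40 and 27.4 ± 2.86 at E13.5 and to 10.03 ± 0.501 and 14.5 ± 1.37 at P7, led by Efna4 at E13.5 and Efna2 at P7. No test was run on these sums.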
